A study of Mus musculus with 7 samples.

Results

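The cells described here are 94 barcodes that carried transcripts of the Il1rl1, Gata3 and Calca programme of group 2 innate lymphoid cells. They had no transcript of the Cd3, mast cell, basophil and C1q genes named below, although other genes of those cell types were not excluded. They were taken from 23938 cells that passed a filter of at least 500 unique molecular identifiers (UMIs), at least 200 genes and at most 20% mitochondrial UMIs. A cell was kept when it had 1 or more UMI in at least 2 of the 5 genes Il1rl1, Gata3, Calca, Il13 and Il5, and no UMI of Cd3d, Cd3e or Cd3g, of Cpa3, Ms4a2 or Mcpt8, or of C1qa, C1qb or C1qc. These 14 genes therefore chose the cells, and their values are given as a description only. Such cells are called gated cells in what follows.

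The libraries came from atypical teratoid rhabdoid tumours (ATRT) of Rosa26-creERT2::Smarcb1 fl/fl mice, in which a tamoxifen-activated Cre recombinase under the ubiquitous Rosa26 promoter deletes Smarcb1, whose protein belongs to the SWI/SNF chromatin remodellers. Every animal was exposed through its mother to 1 dose of 50 mg/kg tamoxifen at 6.5 days post-coitum, so both groups share the deletion and the drug, and no tumour-free tissue was analysed here. The MYC group had 5 libraries: cerebrum basal at 12 weeks (replicate 1), trigeminal nerve and cerebellum lateral at 19 weeks (replicates 2 and 3), trigeminal nerve at 21 weeks (replicate 4) and cerebrum basal at 27 weeks (replicate 5). The SHH group had 2 libraries, both from the striatum/subventricular zone, at 14 weeks (replicate 1) and 16 weeks (replicate 2). Replicates 2 and 3 of the MYC group share a number in their titles and were taken as 1 animal, which the labels do not state, so the group counts as 4 animals. Subgroup and site cannot be told apart.

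Group 2 innate lymphoid cells (ILC2) are tissue lymphocytes without an antigen receptor. They respond to the epithelial and stromal alarmins IL-33, IL-25 and TSLP, depend on the transcription factors GATA3 and RORα, and release the type 2 cytokines IL-5 and IL-13 as well as amphiregulin. Il1rl1 encodes ST2, the IL-33 receptor, and Calca encodes calcitonin and the neuropeptide CGRP, which ILC2 both make and sense.

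Of the 5 choosing genes, Il1rl1 lies at chr1:40429570-40465415 on the plus strand, Gata3 at chr2:9857078-9890034 on the minus strand, Calca at chr7:114631478-114636357 on the minus strand, Il13 at chr11:53631324-53634702 on the minus strand and Il5 at chr11:53720794-53725106 on the plus strand (GRCm38, GENCODE vM21, all protein coding). All 5 genes matched the RefSeq promoter table (GRCm38.p6), with 6 promoters in all. The 250 bases before each start site were searched for AGATAA and its reverse complement TTATCT, letters bound by GATA factors. Of the 6 promoters, 4 held a match, against 9.99% of 32851 promoters in the table, and the promoters of Gata3 and Il5 held none in this window. The same search found no match in the promoters of Hs3st1, Rora, Areg and Furin, which did not choose the cells. The 4 promoters with a match belong to 3 genes and are printed because they held one. Their number was not tested against the share in the table. Each is shown 5′ to 3′ on the strand of its gene, with the match in capitals, and covers in order chr1:40429320-40429569, chr1:40439379-40439628, chr7:114636358-114636607 and chr11:53634703-53634952.
Il1rl1, upstream start site, plus strand: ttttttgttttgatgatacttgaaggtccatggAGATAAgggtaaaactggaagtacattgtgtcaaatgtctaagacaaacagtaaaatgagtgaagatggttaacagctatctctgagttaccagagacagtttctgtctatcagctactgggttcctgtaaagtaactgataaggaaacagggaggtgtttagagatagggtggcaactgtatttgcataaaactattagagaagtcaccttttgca
Il1rl1, downstream start site, plus strand: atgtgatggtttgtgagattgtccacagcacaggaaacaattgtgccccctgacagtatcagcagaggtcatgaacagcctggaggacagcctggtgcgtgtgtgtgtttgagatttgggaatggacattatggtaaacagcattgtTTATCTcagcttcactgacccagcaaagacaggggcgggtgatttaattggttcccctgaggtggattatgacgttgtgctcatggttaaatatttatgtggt
Calca, minus strand: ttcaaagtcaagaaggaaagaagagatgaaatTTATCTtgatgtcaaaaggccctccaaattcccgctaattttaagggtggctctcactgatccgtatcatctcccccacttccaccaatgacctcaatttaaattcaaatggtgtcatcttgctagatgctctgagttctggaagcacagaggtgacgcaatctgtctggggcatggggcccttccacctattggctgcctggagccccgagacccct
Il13, minus strand: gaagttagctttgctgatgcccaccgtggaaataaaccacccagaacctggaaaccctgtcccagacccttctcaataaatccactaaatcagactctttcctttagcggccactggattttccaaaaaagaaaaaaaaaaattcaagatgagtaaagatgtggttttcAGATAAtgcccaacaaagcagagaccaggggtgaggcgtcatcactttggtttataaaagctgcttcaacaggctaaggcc
The match began 217 and 103 bases before the start site in the Il1rl1 promoters, 218 bases before it in Calca and 81 bases before it in Il13. A match describes the letters only, and no binding was measured.

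The gated cells were concentrated in a single tumour. MYC replicate 4, a trigeminal nerve tumour, held 85 of the 94, which was 3.74% of its 2270 kept cells (exact 95% binomial interval 3.002% to 4.61%). MYC replicate 1 held 4 of 346 cells (1.16%, 0.316% to 2.93%), MYC replicate 5 held 4 of 15253 (0.0262%, 0.00715% to 0.0671%) and SHH replicate 2 held 1 of 1708 (0.0585%, 0.00148% to 0.326%). None was found in 445 cells of MYC replicate 2, 183 cells of MYC replicate 3 or 3733 cells of SHH replicate 1, and these zeros allow shares of up to 0.674%, 1.64% and 0.0804%. Intervals and limits here cover counting error only.

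**Figure D1:**
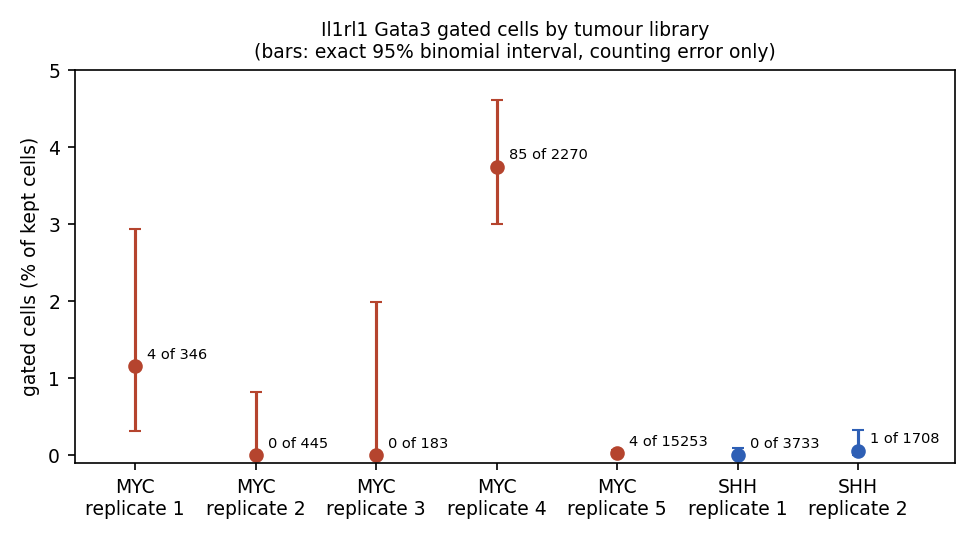
Gated cells as a percentage of kept cells (vertical axis) in each of the 7 libraries (horizontal axis; MYC in red, SHH in blue), with exact 95% binomial intervals as bars and the counts beside the points. MYC replicate 4 stands at 3.74% and the other 6 libraries lie at or below 1.16%.

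With the 2 libraries of 1 animal summed, the mean share was 1.23% ± 1.76 (SD, n = 4 animals) in MYC tumours and 0.0293% ± 0.0414 (SD, n = 2) in SHH tumours. The groups overlapped, and the difference of 1.20 percentage points was smaller than the spread between MYC animals (exact two-sided permutation test over 15 splits, p = 0.667). The smallest p that 4 against 2 animals can give is 0.0667. Such a p is the share of splits of these animals whose difference lay at least as far from 0. With the 2 libraries of that animal counted separately the difference was 0.956 percentage points (exact permutation p = 0.714). Without MYC replicate 4 the difference was 0.365 percentage points (exact permutation p = 0.9). MYC replicate 4 was also the shallowest library by median UMIs per kept cell (1728, against 2351 to 9346 in the others). After every cell was thinned to 1000 UMIs its share was 3.22% of 2141 cells, and the difference between the groups was 0.780 percentage points (exact permutation p = 0.933).

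The series' tables held 24433 barcodes, beside the 24199 cells that the submitters state, and the library totals ran from 2150925 to 111985990 UMIs. Barcode sequences recurred between libraries for 230 barcodes, and 1 of the 94 gated cells carried such a barcode. Markers fixed for ILC2 (Rora, Il7r, Areg, Icos, Klrg1, Il17rb, Ptgdr2 and Arg1) and for tumour and stroma (Col1a1, Col1a2, Krt8, Krt18, Msln, Timp1 and Fabp7) were counted in every gated cell. In MYC replicate 4, 64 of 85 gated cells (75.3%, 64.7% to 84.0%) had 2 or more of the 8 ILC2 markers, and 1 had any of the 7 tumour and stroma markers. T cells of that library with Cd3 transcripts had 2 or more of the ILC2 markers in 33.7% of 741 cells, and those that also had 2 choosing genes in 58.2% of 67 (45.5% to 70.2%), an interval that overlaps that of the gated cells. The cells are called ILC2-like in that library, with 2 reservations. Ptgdr2, the prostaglandin D2 receptor that marks ILC2, had no UMI in any of them, and Klrg1 was seen in few of them.

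The 9 gated cells of the other libraries went against that name. All 4 cells of MYC replicate 1 had 3 to 6 of the 7 tumour and stroma markers, with 24 to 1031 UMIs of these genes per cell, and 1 of them had a Ptprc UMI. Of the 4 cells of MYC replicate 5, 3 had no ILC2 marker. The other had 2 UMIs of Il1rl1, 1 of Gata3, 1 of Il13, 2 of Il7r, 2 of Il17rb and 1 of Areg, together with 58 UMIs of tumour and stroma markers. The single SHH cell had 4 UMIs of Gata3, 11 of Calca and 1 of Ptprc, and none of the 8 ILC2 markers. These 9 cells are therefore described by the rule alone, and everything below concerns the 85 cells of MYC replicate 4.

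**Figure D2:**
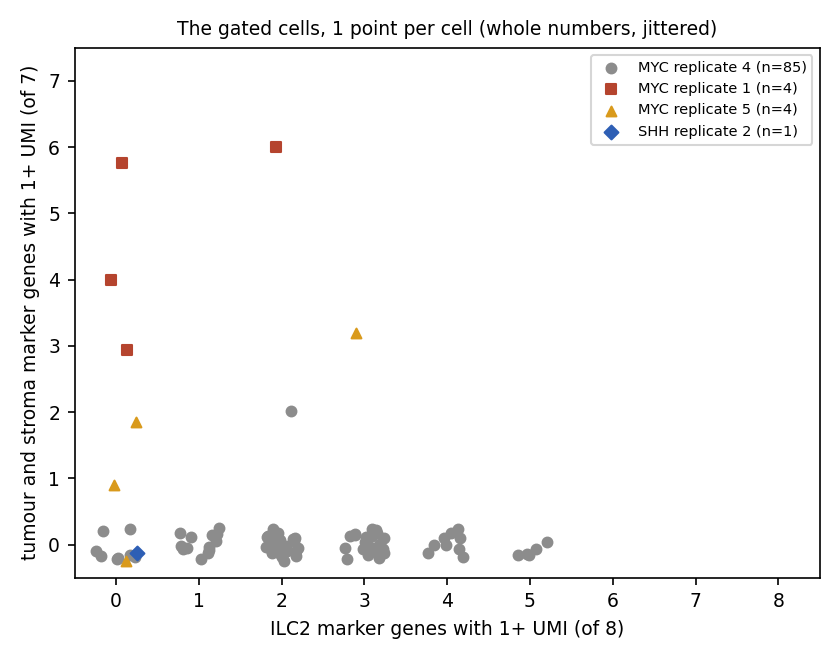
Each point is 1 of the 94 gated cells, placed by how many of 8 ILC2 markers (horizontal axis) and of 7 tumour and stroma markers (vertical axis) had 1 or more UMI. Grey circles are MYC replicate 4, red squares MYC replicate 1, yellow triangles MYC replicate 5 and the blue diamond SHH replicate 2; all but 1 of the 85 grey points lie at 0 on the vertical axis.

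The 85 cells were small libraries of 955 to 10565 UMIs, with a median of 1314 UMIs and 658 genes. The choosing genes were spread unevenly over them. Il1rl1 was seen in 75 cells, Gata3 in 66 and Calca in 58. Over all 85 cells the median was 2 UMIs for Il1rl1 (highest 8), 1 for Gata3 (highest 6) and 2 for Calca (highest 16). The commonest pattern was Il1rl1 with Gata3 and Calca (28 cells), followed by Il1rl1 with Gata3 (20), Il1rl1 with Calca (13) and Gata3 with Calca (8). The cytokine genes were rarer: Il13 was seen in 7 cells with at most 3 UMIs and Il5 in 9 cells with at most 10. No cell had UMIs of both, so 16 cells carried 1 of them.

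At the threshold of the rule, 44 cells had exactly 2 of the 5 genes, 41 had 3 or more, and 56 cells that met the other conditions had only 1. Hs3st1 was seen in 56.8% of the cells with exactly 2 genes, in 85.4% of those with 3 or more and in 16.1% of those with 1. Rora followed the same order, at 61.4%, 78.0% and 41.1%. The cells with 1 gene also held more of the tumour and stroma markers, which were seen in 16 of the 56.

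Calca stood at 1385 CPM (counts per 1000000 UMIs) in gated cells and 8.35 CPM in T cells with Cd3 transcripts of the same library, values that the rule itself had used. To look at the gene outside the rule, cells were chosen on 2 of the other 4 genes alone, an alternative added after the data were seen. Calca was then present in 36 of 63 gated cells (57.1%, 44.0% to 69.5%), and in 1 of 63 T cells that carried 2 of the same 4 genes (1.59%, 0.0402% to 8.53%). Their median depths were 1395 and 1850 UMIs. After every cell was thinned to 1000 UMIs the shares were 45.2% and 1.61%. Macrophages of the library, which should lack the gene, had Calca UMIs in 0.813% of cells at a median depth of 2270.5 UMIs.

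Further comparisons were made between the gated cells and other lymphocytes of the same tumour: 741 T cells (2 or more of Cd3d, Cd3e and Cd3g), 67 of these T cells that also had 2 or more of the 5 choosing genes, and 38 natural killer (NK) cells (2 or more of Ncr1, Klrb1c, Klre1, Eomes and Gzma, no Cd3). Levels are CPM of the summed class. Because only 1 animal held 10 or more gated cells, no test across animals could be made, and ratios carry exact 95% intervals for counting error within these libraries. Genes with a mean of at least 100 CPM over the 2 classes were compared, and a gene was counted as higher or lower at 2-fold or more. Against T cells, 98 of 1223 genes (8.01%) were higher and 54 (4.42%) lower. Against the T cells with choosing genes, 80 of 1234 (6.48%) were higher and 76 (6.16%) lower. Against NK cells, 126 of 1255 (10.0%) were higher and 143 (11.4%) lower.

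**Figure D3:**
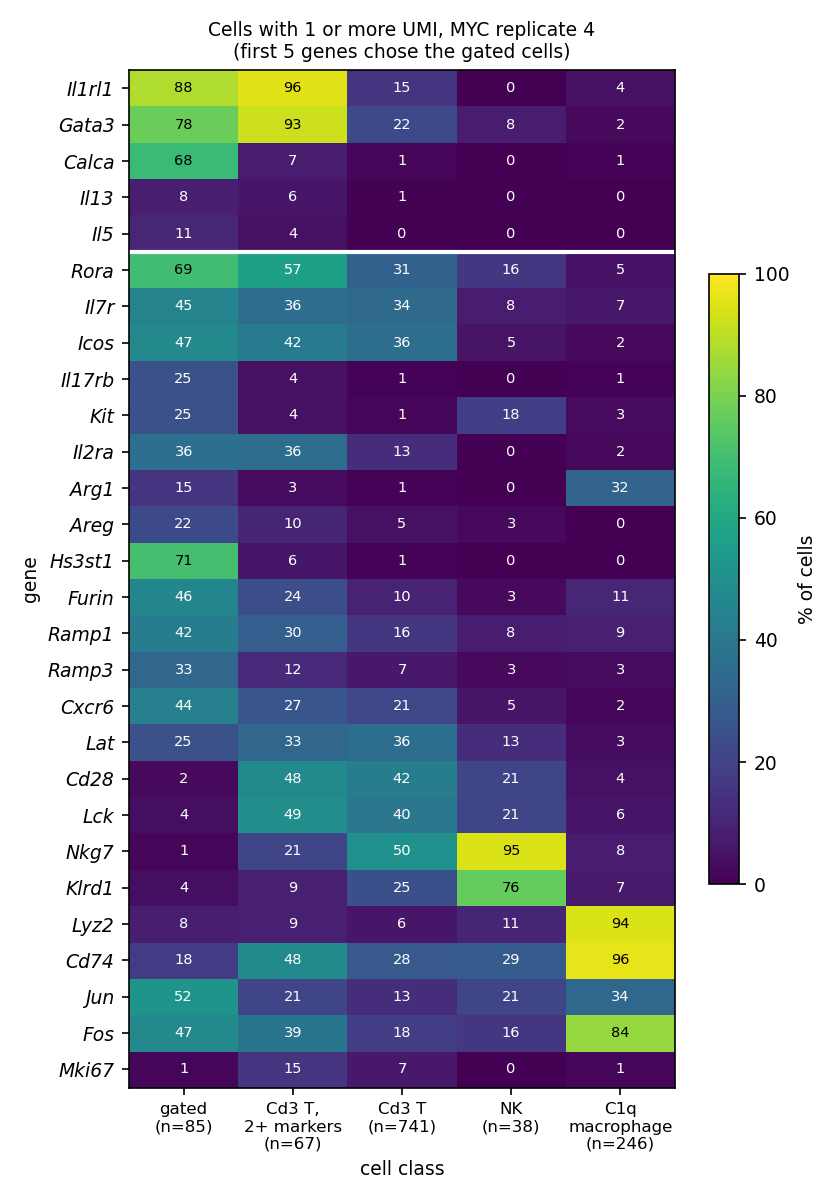
Percentage of cells with 1 or more UMI (colour and printed number, 0 to 100%) for 28 genes (rows) in 5 cell classes of MYC replicate 4 (columns, with their numbers of cells). Hs3st1 was seen in 70.6% of gated cells and at most 5.97% of cells in the other 4 classes, whereas Nkg7 was seen in 1.18% of gated cells and 94.7% of NK cells.

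Among the genes higher than in T cells, the largest ratio outside the rule was that of Hs3st1, a heparan sulfate 3-O-sulfotransferase. It reached 1031 CPM (874 to 1207) in gated cells and 12.2 CPM (7.35 to 19.1) in T cells, a ratio of 84.5 (52.3 to 144). It was seen in 60 of 85 gated cells and 7 of 741 T cells, and after thinning in 56.6% and 0.295%. No NK cell had a Hs3st1 UMI, so its level was at least 28.0-fold higher in gated cells. In MYC replicate 1, the gated cell with 57447 UMIs and 6 tumour and stroma markers held 34 Hs3st1 UMIs. Hs3st1 lies at chr5:39613935-39755475 (GRCm38).

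The list of ILC2 transcription factors had 14 genes, of which 7 reached the level for comparison with T cells; 3 were higher and 1 lower, and their median log2 ratio was 0.36 against -0.06 for all genes compared. Rora, the RORα gene required for ILC2 development, stood at 957 CPM in gated cells and 249 CPM in T cells (ratio 3.85, 3.16 to 4.68). It was seen in 69.4% and 31.0% of cells, and in 55.4% and 21.0% after thinning. Bhlhe40 was 2.48-fold higher (1.88 to 3.23). Junb, a member of the AP-1 family, was 2.65-fold higher (2.36 to 2.96) and also belongs to the dissociation list below. Ikzf2, the Helios gene, was 3.98-fold lower (2.39 to 7.15). Id2, required by all innate lymphoid cells, differed little (ratio 1.28, 1.02 to 1.60). Pparg, a lipid-sensing nuclear receptor, was rare at 73.6 CPM in gated cells and 6.42 CPM in T cells. Tcf7, seen in 138 of 741 T cells, had no UMI in gated cells.

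Among 23 ILC2 surface receptor genes, 12 reached the level for comparison with T cells; 4 were higher, 1 was lower, and the median log2 ratio was 0.67. The higher genes were Il2ra, the IL-2 receptor alpha chain (ratio 3.08, 2.16 to 4.33), Crlf2, the TSLP receptor chain (2.19, 1.41 to 3.29), the chemokine receptor Cxcr6 (2.84, 2.10 to 3.80) and the activation marker Cd69 (2.12, 1.54 to 2.87). Tnfrsf4, the OX40 gene, was 2.49-fold lower (1.57 to 4.16). Il7r, the IL-7 receptor gene, and Icos, a costimulatory receptor, had ratios of 1.36 (0.992 to 1.82) and 1.62 (1.22 to 2.11).

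Some receptor genes below that level were seen in more gated cells than T cells. Il17rb, the IL-25 receptor, was seen in 21 of 85 gated cells, 7 of 741 T cells and none of 38 NK cells (161 CPM against 4.496 CPM in T cells). Kit, the stem cell factor receptor, was seen in 21 gated cells and 11 T cells, but also in 18.4% of NK cells. Cysltr1, a leukotriene receptor, stood at 141 CPM in gated cells and 21.2 CPM in T cells. Ptgdr2 and Nmur1, the neuromedin U receptor, had no UMI in any gated cell, which allows a level of up to 20.1 CPM, and none in T cells.

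Set beside the 67 T cells that shared the choosing genes, the receptor list was closer: 1 of 12 compared genes was higher (Cxcr6), 1 was lower (Tnfrsf4) and the median log2 ratio was 0.21, against -0.06 for all genes. Il2ra had a ratio of 1.18 (0.764 to 1.81) and Tnfrsf18, the GITR gene, of 0.899 (0.708 to 1.14), so both intervals include equal levels. Of the 14 transcription factors 8 were compared with these T cells, with a median log2 ratio of -0.16. Rora was higher at a ratio of 2.07 (1.57 to 2.74), whereas Ikzf2 was 5.42-fold lower (3.14 to 10.05) and Bcl11b, a T cell and ILC2 factor, 2.19-fold lower (1.13 to 4.51).

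The list of type 2 effectors and ILC2 products had 20 genes, 19 of them with values, of which 6 reached the level for comparison with T cells. Higher were Hs3st1, Areg, Furin and Cd81; Ccl5 was lower. Areg encodes amphiregulin, an EGF receptor ligand of tissue repair, and stood at 388 CPM in gated cells and 40.5 CPM in T cells (ratio 9.59, 6.60 to 13.9). It was seen in 19 cells, and 9 of these also had Il13 or Il5. Furin, a proprotein convertase, was 8.88-fold higher (6.52 to 12.1) and was seen in 39 cells. Arg1, an arginine-degrading enzyme of ILC2 and macrophages, was seen in 13 gated cells, 8 T cells and 31.7% of macrophages. Il6, Csf2, Tph1, Penk and Il10 had no UMI in gated cells, and Il4 had 2.

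The cells with a cytokine UMI differed somewhat from the others as a description within 1 animal. Areg was seen in 56.2% of the 16 cells with Il13 or Il5 and in 14.5% of the 69 without, and Furin in 75.0% and 39.1%. Their median depths were 1568.5 and 1297 UMIs, and the part of depth in these shares was not tested. Split by Calca instead, Rora was seen in 69.0% of the 58 cells with Calca and 70.4% of the 27 without, and Areg in 22.4% and 22.2%. Hs3st1 was seen in 77.6% and 55.6%, and Il7r in 36.2% and 63.0%, against 43.8% and 44.9% for Il7r in the split by cytokines.

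The CGRP receptor genes Calcrl and Ramp1 were measured because the cells carry Calca. Ramp3, a relative of Ramp1 that is not part of the CGRP receptor, was measured beside them. Ramp1 and Ramp3, which pair with the receptor Calcrl, were both higher than in T cells of the library, with ratios of 3.13 (2.28 to 4.22) and 5.78 (3.94 to 8.38). These T cells had the lowest Ramp1 level of any library's T cells, 122 CPM against 381 CPM in gated cells. T cells of MYC replicate 2 had 785 CPM of Ramp1. For Ramp3 the highest T cell level was 69.3 CPM, in MYC replicate 5, against 308 CPM in gated cells. Ramp1 was seen in 36 gated cells and Ramp3 in 28; 26 and 21 of these also had Calca. Calcrl itself had 1 UMI in the 85 cells. In the other libraries Calcrl was most often seen in SHH replicate 2, in 216 of 883 unassigned cells. Unassigned cells are not gated cells and had no UMI of Ptprc, Tyrobp or the Cd3, mast cell, basophil and C1q genes of the rule.

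The T and NK programmes were low. Of 13 T cell receptor and T lineage genes with values in the tables, 5 reached the level for comparison with T cells, 4 were lower and none was higher (median log2 ratio -3.69). Cd28, a T cell costimulatory receptor, had 2 UMIs in gated cells against 504 in T cells (24.2-fold lower, 6.66 to 200), and Lck, the T cell receptor kinase, had 3 against 403 (12.9-fold lower, 4.38 to 62.8). Cd247, Cd5 and Cd8a had no UMI in gated cells. Lat, an adaptor of T cell receptor signalling, was seen in 21 gated cells and was 1.93-fold lower (1.25 to 3.16). The T cell receptor constant genes were not analysed here.

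The absence of Cd3 UMIs chose the gated cells, and a shallow T cell could meet that condition. T cells of the library had a median of 5 Cd3 UMIs, and 289 cells had UMIs of only 1 Cd3 gene. Of these 289 cells, 24 had 2 or more of the choosing genes. Outside the rule, 2 or more of the 13 T lineage genes were seen in 10 of 85 gated cells (11.8%) and in 556 of 741 T cells (75.0%). These T cells were chosen for UMIs of 2 or more Cd3 genes. The values therefore cannot show how often T cells without Cd3 UMIs would have these genes.

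Of 16 NK and group 1 innate lymphoid genes, 10 had no UMI in gated cells, among them Ncr1, Eomes, Tbx21, Gzmb, Prf1 and Ifng. Nkg7, a cytotoxic granule gene, had 1 UMI against 1584 in T cells and 198 in 38 NK cells. When only cells with Ptprc were kept, its log2 ratio to T cells was -4.52, against -7.25 for all gated cells. The -4.52 is the limit that 3 counts set in the smaller class, so it does not show a weaker difference. Against NK cells, Xcl1, a chemokine gene, was at least 66.1-fold lower, Gzmb at least 21.4-fold lower and Klrd1, an NK receptor, 45.9-fold lower (15.1 to 227). In the other direction Icos was 11.3-fold higher (3.68 to 56.1), Cxcr6 10.9-fold (3.56 to 54.3), Rora 11.1-fold (5.27 to 28.2) and Il7r 9.26-fold (2.996 to 46.4). Of the group 3 genes, Il17f, Il22 and Il23r had no UMI, and Tmem176a and Tmem176b were 2.61-fold (1.92 to 3.48) and 2.21-fold (1.56 to 3.08) higher than in T cells.

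The genes with the largest ratios to T cells, named by size, followed Hs3st1 at 10.6-fold to 28.0-fold. Epas1, the HIF-2α gene, was 28.0-fold higher (15.5 to 53.3) and Hilpda, a hypoxia-inducible lipid droplet gene, 15.3-fold (12.0 to 19.7). Irs2, an insulin receptor substrate, was 16.7-fold higher (12.0 to 23.4) and was seen in 64.7% of gated cells against 6.48% of T cells. Prnp was 20.0-fold higher (12.1 to 33.9), Rnf128 18.8-fold (11.4 to 31.7), Fosb 12.6-fold (8.26 to 19.2), AA467197 11.0-fold (8.38 to 14.4) and Lmo4 10.6-fold (7.59 to 14.7). Cxcl2, a neutrophil chemokine, was 15.4-fold higher (12.2 to 19.4) but was seen in 17 cells, and its log2 ratio moved from 3.94 to 2.68 when only cells with Ptprc were kept. The 10 lower genes were Nkg7, Ms4a4b, Cd28, Cd8b1, Gimap4, Ms4a6b, Lck, Klrd1, Ccl5 and Ly6c2, with ratios from 7.81-fold to 152-fold lower.

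**Figure D4:**
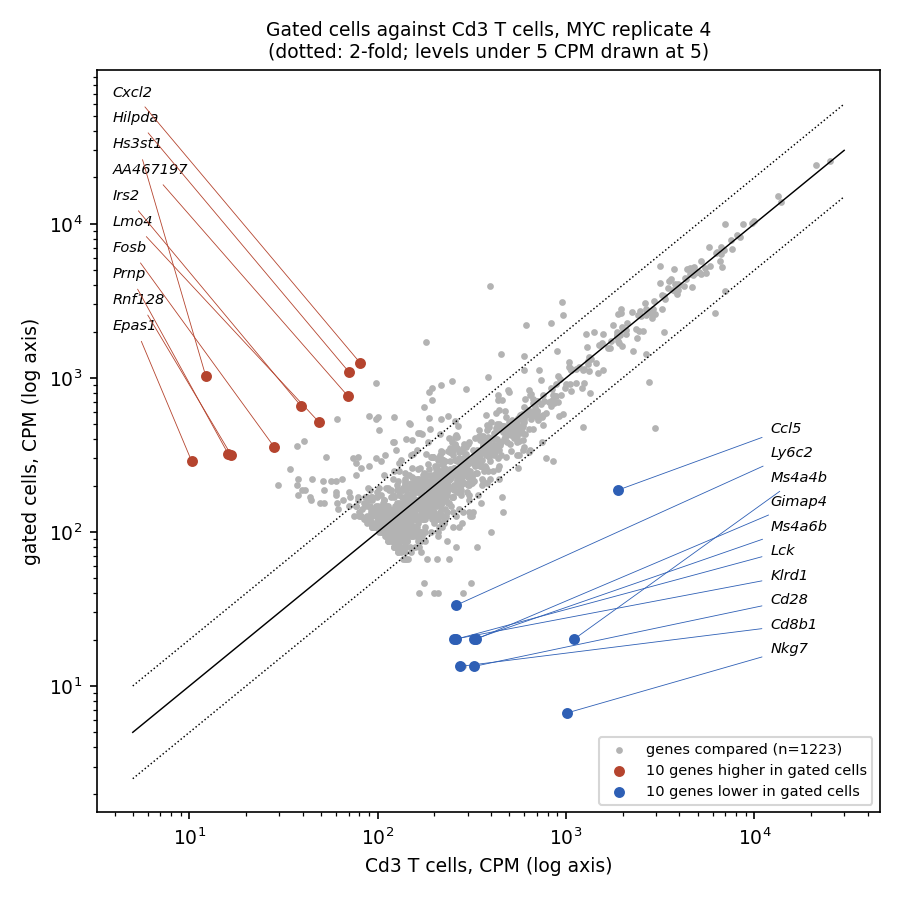
Level of 1223 genes in the 741 T cells (horizontal log axis, CPM) and the 85 gated cells (vertical log axis, CPM) of MYC replicate 4; red and blue points are the named genes with the largest and smallest ratios, the solid line is equality and dotted lines are 2-fold. Hs3st1 lies farthest above the line, at 1031 CPM against 12.2 CPM, and Nkg7 farthest below it.

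Against the T cells that shared the choosing genes, the 10 largest ratios belonged to Lmo4, Epas1, Hs3st1, Jun, Cd63, Hilpda, Tmem176a, Prnp, Areg and Irs2. Lmo4 was 23.7-fold higher (8.88 to 89.1) and Hs3st1 12.6-fold (7.42 to 23.1).

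Tumours were dissociated with Accutase before sorting, and genes that respond to dissociation moved with these differences. Of 15 such genes, 10 were compared with T cells and 8 were higher, with a median log2 ratio of 1.47. Their summed level was 7630 CPM in gated cells, with a range over cells of 0 to 32448, and 2567 CPM in T cells, with a range of 0 to 22945. Against T cells with choosing genes 3 of 10 were higher, and against NK cells 9 of 10. Jun was 9.40-fold higher than in T cells (7.41 to 11.9), and Hspa1a had no UMI in gated cells. Their part in the other differences was not tested.

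Any of 12 cell cycle genes was seen in 11 of 85 gated cells (12.9%), 27.4% of T cells and 23.7% of NK cells. Mki67, a proliferation marker, was seen in 1 of 85 gated cells, 6.88% of T cells and 14.9% of T cells with choosing genes; the 12 genes together reached 315 CPM in gated cells, 1166 CPM in T cells and 233 CPM in NK cells. Only Stmn1 reached the level for comparison with T cells, and was 2.72-fold lower (1.83 to 4.23). Of 13 genes of tissue-resident lymphocytes, 6 were compared with T cells; Cxcr6, Cd69 and Rgs2 were higher and Runx3, a transcription factor, 2.08-fold lower (1.11 to 4.404). Against T cells with choosing genes, 1 of 5 was higher. Rgs2 was 3.14-fold higher than in T cells (2.68 to 3.66), and S1pr1, a receptor for tissue exit, had 1 UMI; Itga1 and Zfp683 had none.

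Markers of other cell types were absent for some lineages and present for others. All 5 B and plasma cell genes with values, all 5 neutrophil genes, all 5 vascular genes and all 4 haemoglobin genes were at 0 in the gated cells. The haemoglobin genes were also at 0 in T cells, NK cells and macrophages of the library. Neutrophil genes had 9 UMIs in the 741 T cells, and B and plasma cell genes had 24. The zeros of these genes therefore do little to set gated cells apart from T cells. Of 14 tumour and matrix genes, 10 were at 0 and the other 4 (Msln, Timp1, Col3a1 and Sparc) came from 1 cell, the deepest of the 85, which supplied 7.07% of the class's UMIs. Of 12 macrophage and monocyte genes 9 were seen, in 23 gated cells (27.1%), at 830 CPM in all against 1188 CPM in T cells; Csf1r, Adgre1 and Ms4a7 were at 0, and Lyz2 was seen in 7 cells. All 9 dendritic cell genes were seen, in 25 gated cells (29.4%), at 9075 CPM against 8608 CPM in T cells. Their part in the other differences was not tested. Of these, Cd74, the class II invariant chain, was seen in 15 cells with up to 183 UMIs in a cell, at 5281 CPM, close to the 4797 CPM of T cells. Ptprc, the leukocyte gene CD45, was seen in 36 of 85 gated cells (42.4%), 68.8% of T cells and 78.9% of NK cells.

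The alarmins that ILC2 receptors bind were looked for in the cells around them. Il33, Il25 and Tslp had no UMI in the 85 gated cells. In MYC replicate 4, Tslp was seen in 19 of 128 unassigned cells, at 558 CPM (492 to 630), and Il33 in 3 of these cells at 6.51 CPM. These 128 cells are mixed: tumour and matrix genes were seen in 65, dendritic cell genes in 74 and B and plasma cell genes in 19. Unassigned cells in the other MYC libraries had Tslp at 218 CPM in replicate 5, 14.4 in replicate 3, 8.40 in replicate 2 and 4.52 in replicate 1. In those of SHH replicate 2 the level was 1.21 CPM, and none was seen in SHH replicate 1. Tslp was not limited to unassigned cells. Macrophages had it at 136 CPM in MYC replicate 1, from 3 cells, and at 135 CPM in MYC replicate 5. In macrophages of MYC replicate 4 it stood at 66.6 CPM, from 4 cells. Among unassigned cells Il33 was highest in MYC replicate 2, at 140 CPM in 24 of 106, a library where no gated cell was found. Il4ra and Il13ra1, the receptor chains for IL-13, stood at 115 and 29.2 CPM in macrophages of MYC replicate 4. Egfr, the receptor for amphiregulin, stood at 76.0 CPM in unassigned cells of that library. Il25 had 3 UMIs each in macrophages and in unassigned cells of MYC replicate 5.

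T cells with 2 or more of the choosing genes were more widely spread over the tumours than gated cells. They made up 9.04% of 741 T cells in MYC replicate 4, 9.09% of 44 in MYC replicate 1 and 6.30% of 508 in MYC replicate 5, but 0.344% of 291 in SHH replicate 1 and 1.64% of 122 in SHH replicate 2. None was seen in the 24 and 26 T cells of MYC replicates 2 and 3. Over animals the means were 6.11% ± 4.28 (SD, n = 4) in MYC and 0.991% ± 0.916 (SD, n = 2) in SHH tumours, and the groups overlapped (exact two-sided permutation p = 0.267). Median depths of T cells were 4158, 2368.5, 2443, 1405 and 4510 UMIs in MYC replicates 1 to 5. In SHH replicates 1 and 2 they were 1270 and 1655 UMIs. Gata3 was seen in 54.5% of T cells of MYC replicate 1, but also in 55.4% of its macrophages. The part of depth and of Gata3 in these shares was not tested.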

How the data were processed

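Droplet libraries (10x Chromium, 3′ ends) were made from dissociated tumours sorted for living cells, and the authors deposited raw UMI count tables per library, per the labels' protocols. Cell Ranger 2.0.2 and mm10 are named in the submitters' processing notes. Genes listed in no table are not analysed here. The members and gene lists were chosen with earlier results of these data known.

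Counts were summed per cell class and given as CPM. Shares have exact (Clopper-Pearson) 95% intervals, and ratios exact conditional binomial intervals (scipy 1.17.1), checked on simulated counts. A level of 0 is bounded at 3 counts per class. The planned edgeR tests and the comparison of MYC with SHH genes were not run, because 1 animal had 10 or more gated cells. In their place, by a rule set after the data were seen, genes were named by size: the 10 largest and 10 smallest ratios among genes with a mean of 100 CPM or more, seen in at least 15% of cells of the higher class. Ribosomal, mitochondrial, Gm-type, Rik, Xist and Y-linked genes and the choosing genes were not taken. The share was compared over animals by an exact permutation test. Scrublet (scanpy 1.11.5) marked likely doublets, the top 0.8% per 1000 cells in libraries of 200 or more cells. They stayed in the values reported, and the marks fell on 1 of the 85 cells. Alternatives covered depth, marker number, Ptprc, doublets, filters and left-out animals.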

Additional observations from a re-analysis of the deposited data

Results flagged for a closer look

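MYC replicate 4 lay apart from the other MYC libraries in 2 of 4 measures of the share of gated cells. Among cells free of the Cd3, mast cell, basophil and C1q genes of the rule, 9.30% were gated cells in MYC replicate 4. Among cells thinned to 1000 UMIs 3.22% were. Counted by library, the gap to the next library was 0.715 and 0.994 of the whole range, above the 95% limit of 0.71 for 5 values, which chance passes in about 1 in 20 groups. Counted by animal, with replicates 2 and 3 as 1, the limit for 4 values is higher, and only the thinned share passed it. The share of all kept cells (0.691) and the share among cells with Ptprc (0.648) passed neither limit.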

How the results depend on the processing

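The difference in share between MYC and SHH animals kept its sign in all 14 alternatives run, though 4 against 2 animals cannot give a p under 0.0667. Leaving out 1 animal at a time gave 0.365 to 1.61 percentage points. The 0.365 came without MYC replicate 4, where MYC replicate 1 had the highest remaining share, at 1.16%. Its 4 gated cells carried tumour and stroma markers, and after thinning none of its 346 cells was gated. The sign in that setting is therefore not a result about ILC2-like cells. In MYC replicate 4 the share was 1.81% with 3 or more choosing genes, 1.59% with Ptprc required and 2.78% without Calca as a choosing gene, the last added after the data were seen. Without a filter on low counts, 2763 genes were counted as higher and 1073 as lower than in T cells. Against NK cells, 845 were counted as higher and 864 as lower. A gene with no UMI in a class was set at 3 counts there. In the smaller gated class this limit can exceed 2-fold the level of a rare T cell gene. The 2763 can therefore include genes unseen in gated cells and is not read as a result. The numbers of genes compared in these settings are not given here. With Ptprc required, 82 genes were lower than in T cells. The other 19 of 24 counts stayed within 1.5 times, and of 240 ratios of named genes none changed direction; 18 left their counting interval. A level taken as the mean over cells, added after the data were seen, is among these. DESeq2, the fit without the animal as a term and leaving out animals were not run for genes, nor any setting of the MYC and SHH gene comparison. No paired analysis was possible because only 1 animal held enough gated cells and the replicate numbers follow accession order, since the labels give none. All gene values rest on 85 shallow cells of 1 tumour.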
